A study of Homo sapiens with 6 samples.

Results

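Clustered protocadherins are cell-surface adhesion proteins of the cadherin superfamily, encoded by 3 tandem arrays on chromosome 5 that are called alpha, beta and gamma. Members were the rows of the gene count table whose Ensembl identifier maps in GENCODE 29 to a symbol of the PCDHA, PCDHAC, PCDHB, PCDHGA, PCDHGB or PCDHGC series. GENCODE holds 54 such symbols, and 45 of the 18677 rows of the table were members, 8 alpha, 15 beta and 22 gamma genes. The other 9 symbols (PCDHA1, PCDHA2, PCDHA3, PCDHA6, PCDHA7, PCDHA8, PCDHA9, PCDHA14 and PCDHB1) were not analysed here. The symbols PCDHA4 to PCDHGC5 span chromosome 5 from 140806929 to 141512981 on the plus strand (GRCh38).

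The libraries came from H1299, a long-established cell line of human non-small cell lung cancer. In 3 libraries the cells carried the guide RNA hSETDB1 sg1, and in 3 they carried the guide Control sg2. All cells were cultured in RPMI-1640 with serum, antibiotics and puromycin. Each group rests on 1 guide, the labels do not say whether the cells were clones or pools or whether replicates were separate cultures, and p-values therefore measure only the spread between these samples, which may be technical. SETDB1 encodes a histone methyltransferase that places the repressive mark H3K9me3.

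Each mature alpha or gamma mRNA starts with 1 large variable exon, which has its own promoter and encodes the extracellular cadherin repeats, and continues with constant exons shared by the whole array. Beta genes consist of a single coding exon and have no shared constant exons. Neurons choose promoters from these arrays in combinations that give each cell a surface identity, through binding of CTCF and cohesin and through DNA methylation, and the arrays are often methylated in cancer cells. In mouse neurons SETDB1 is known to bear on the folding and expression of the locus.

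Total counts ranged from 29532057 to 35941288 per library, so that 1 count was worth 0.0282 to 0.0334 CPM, the count scaled to a common library size with TMM factors. SETDB1 mRNA stood at 45.01, 43.96 and 41.6 CPM with the control guide and at 40.6, 36.1 and 39.1 CPM with the SETDB1 guide. The groups did not overlap, and the log2 fold change was -0.17 ± 0.06 (SE; edgeR adjusted p = 0.0151, from quasi-likelihood tests of 17675 genes adjusted by Benjamini-Hochberg). That call was lost with library size alone (log2 fold change -0.13, edgeR adjusted p = 0.0605) and without SETDB1-knockout replicate 2 (-0.13, edgeR adjusted p = 0.0896), and also when tested against a fold of 1.5, while every alternative run kept the sign. A frameshift need not lower an mRNA, so this level checks the labels in part. Of the epithelial markers, KRT8 and KRT18 were abundant (367 and 599 CPM with the control guide), EPCAM was at 0.254 CPM, and KRT19 and CDH1 were not analysed here. KRT8 and KRT18 stood at 157 and 332 CPM with the SETDB1 guide. The lung lineage genes NKX2-1 and NAPSA summed to 0.601 to 0.946 CPM with the control guide and 0.664 to 1.05 CPM with the SETDB1 guide, but went opposite ways. NKX2-1 fell 1.98-fold and NAPSA rose 2.79-fold (edgeR adjusted p = 0.00945 and 0.00442), the former without overlap and the latter with it. The 2 endothelial markers (of 4) summed to 3.37 to 3.84 CPM with the control guide and 1.47 to 1.94 CPM with the SETDB1 guide, and the 3 fibroblast markers (of 5) to 1.70 to 1.84 and 1.13 to 1.39 CPM. The keratins and the endothelial and fibroblast sums did not overlap between groups, the lung lineage sums did, and their part in the results was not tested. In such bulk libraries fewer cells with a transcript and less of it per cell cannot be told apart.

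The promoters of the arrays are known for a conserved element with the core CGCT, to which CTCF binds, and which PCDHAC2, PCDHB1, PCDHGC4 and PCDHGC5 are known to lack. RefSeq promoters (GRCh38.p14, from 250 bases before to 50 after the annotated start) were found for 40 of the 45 members. The windows below, 30 bases each on the plus strand, bring out how alike the starts of these genes are within an array. The beta and gamma windows come from members that rose and members that fell, and the alpha windows only from members that rose. Capitals mark a word common in the array, TGTCGCT in alpha, GGTGGCGCT in beta and GNCGCTGTT in gamma promoters. These words were chosen after the promoter sequences had been read.
PCDHA4 (chr5:140806979-140807008): tggagccacatgaTGTCGCTctttaccaca
PCDHA5 (chr5:140821542-140821571): ttcatccacatgaTGTCGCTggacaccgga
PCDHA11 (chr5:140868883-140868912): tttaggcgcaaggTGTCGCTctttacttgg
PCDHA12 (chr5:140875244-140875273): atcagtcacatgaTGTCGCTctacactcag
PCDHB5 (chr5:141135179-141135208): ttaggacgcctGGTGGCGCTgcaggctaag
PCDHB8 (chr5:141177777-141177806): tgaggacccgtGGTGGCGCTgcaggataag
PCDHB16 (chr5:141182310-141182339): tgagaacgcgtGGTGGCGCTgcaggttaag
PCDHB12 (chr5:141208643-141208672): tggagacgcgtGGTGGCGCTgcaggataat
PCDHB13 (chr5:141213865-141213894): tgaggacgcgtGGTGGCGCTgcaggataag
PCDHGA2 (chr5:141338703-141338732): ttaggcctctgagcGTCGCTGTTgaccacc
PCDHGA3 (chr5:141343767-141343796): ttaggcctcttagtGTCGCTGTTgaccact
PCDHGA4 (chr5:141354960-141354989): ttaagactctgggtGTCGCTGTTcaccaat
PCDHGA10 (chr5:141412931-141412960): ttaggactctgagcGCCGCTGTTcacctac

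Searched on both strands of all 35116 RefSeq promoter windows of the same length, CGCT was present in 70%, TGTCGCT in 1.76%, GGTGGCGCT in 0.501% and GNCGCTGTT in 0.846%. CGCT is contained in each of the longer words, and all 40 members with a window held it, PCDHAC2 and PCDHGC4 included. TGTCGCT was found in 5 of the 7 alpha members with a promoter window, and PCDHAC1 and PCDHAC2 lacked it. GGTGGCGCT was found in all 13 beta members with a window, and GNCGCTGTT in 13 of 20 gamma members. TGTCGCT and GNCGCTGTT were not particular to 1 array, since PCDHB4, PCDHGA3, PCDHGA4 and PCDHGA5 also held TGTCGCT and PCDHB3 also held GNCGCTGTT. GGTGGCGCT was found in 0 alpha and 0 gamma windows. A match describes the letters of the window and shows neither binding nor activity.

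Most alpha and gamma genes were expressed at a higher level with the SETDB1 guide, while beta genes went both ways. Of 41 members tested, 26 were higher and 8 lower, and 7 did not pass the threshold (edgeR, adjusted p under 0.05). Over all 17675 genes tested, 31.9% were called higher and 31.6% lower, together 63.5%. The members' median log2 fold change was 0.78, against 0.01 over all genes tested. Changes of at least 2-fold were called higher for 15 members and lower for 0, against 7.14% and 5.78% of all genes. PCDHGA12, among the 15, was tested only through its counts with the SETDB1 guide. The CPM of the groups did not overlap, with the SETDB1 guide above, in 27 members (33.5% of all genes), and below in 9 (33.3%), against 66.8% of all genes in either direction. When the difference was tested against a fold of 1.5 (edgeR glmTreat), 16 members were higher and 0 lower, against 8.8% and 8.46% of all genes, and 1 was lower at an unadjusted p under 0.05. These shares describe the members and are no test of the family as a whole.

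**Figure D1:**
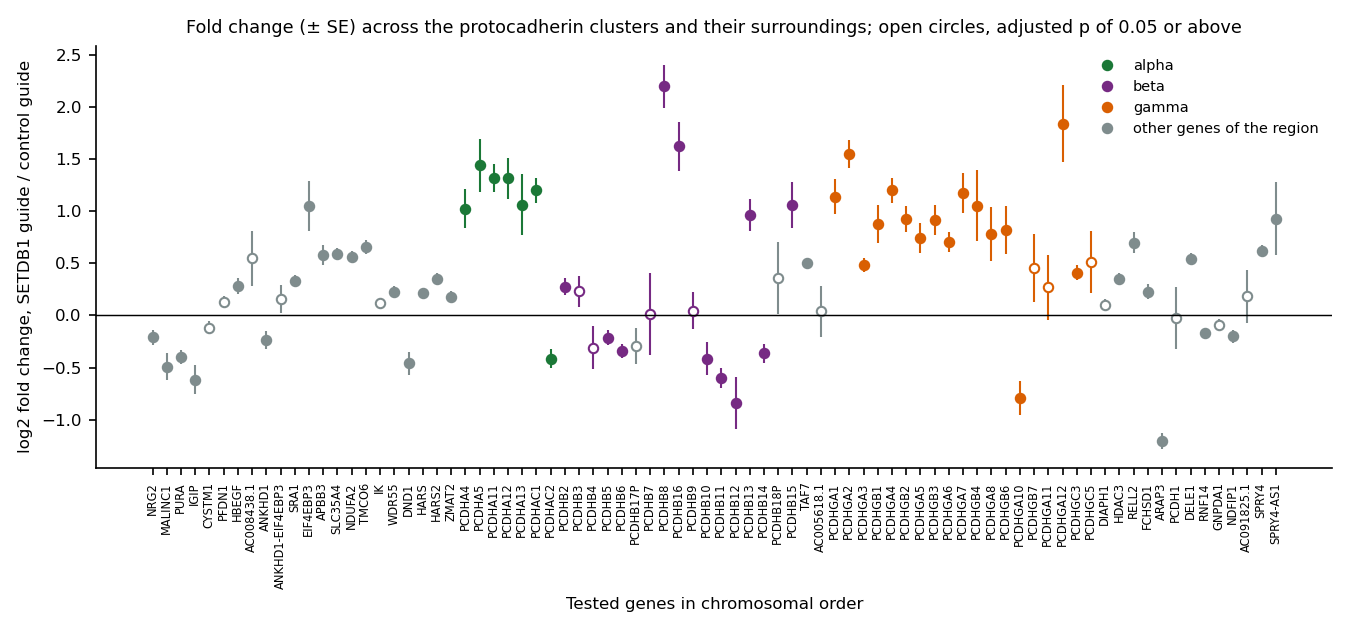
Log2 fold change (SETDB1 guide over control guide, ± SE) of each tested gene in chromosomal order, for the alpha (green), beta (purple) and gamma (orange) arrays and the other genes within 1 Mb (grey); filled circles passed an adjusted p of 0.05 in edgeR and open circles did not. Tested alpha genes other than PCDHAC2 lie between 1.03 and 1.44, beta genes between -0.84 and 2.20, and PCDHGA10 at -0.79 is the 1 gamma gene below 0.

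In the alpha array, 6 of 7 tested genes were higher and 1 was lower, beside 31.9% and 31.6% of all genes. The median log2 fold change was 1.20. PCDHA11 (ENSG00000249158) had, per kb, the highest level of the measured alpha genes before the C types, at 2.17, 1.73 and 1.84 CPM with the control guide and 5.40, 4.74 and 4.24 CPM with the SETDB1 guide. The groups were well apart, and PCDHA11 rose 2.50-fold (log2 fold change 1.32 ± 0.14, edgeR adjusted p = 5.27e-08). PCDHA12 (ENSG00000251664) stood at 0.667, 0.788 and 0.650 CPM against 2.03, 1.62 and 1.64 CPM. It too rose 2.50-fold (1.32 ± 0.20, edgeR adjusted p = 7.89e-06). PCDHA5 (ENSG00000204965) was scarcer, at 0.334, 0.315 and 0.339 CPM against 0.933, 0.953 and 0.819 CPM. It rose 2.71-fold (1.44 ± 0.26, edgeR adjusted p = 6.84e-05), the largest fitted change among the tested alpha genes. PCDHA4 and PCDHA13 rose 2.04-fold and 2.09-fold.

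The C-type exons at the end of the alpha array differ from the others in sequence and, in neurons, are known to be expressed more uniformly. They moved in opposite directions here. PCDHAC1 (ENSG00000248383) stood at 2.67, 2.52 and 2.23 CPM with the control guide and at 6.07, 5.92 and 5.06 CPM with the SETDB1 guide, and no value overlapped. It rose 2.30-fold (log2 fold change 1.20 ± 0.12, edgeR adjusted p = 3.90e-08). PCDHAC2 (ENSG00000243232), the last gene of the array and its most abundant, stood at 9.31, 8.10 and 7.99 CPM with the control guide and at 6.70, 6.18 and 6.14 CPM with the SETDB1 guide. All 3 libraries with the SETDB1 guide lay below the control libraries, and PCDHAC2 fell by 0.42 ± 0.09 on the log2 scale (edgeR adjusted p = 5.26e-04). As a share of all alpha reads, PCDHAC2 held 55.0% ± 0.42 (SD, n = 3) with the control guide and 27.9% ± 1.03 with the SETDB1 guide. No test of the share was run, and with 3 libraries a group an exact permutation test could not go below p = 0.10.

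In the beta array, 5 of 15 tested genes were higher, 6 lower and 4 not called, beside 31.9% and 31.6% of all genes. The median log2 fold change was 0.01, and it was also 0.01 over all genes tested. PCDHB8 (ENSG00000120322) stood at 0.534, 0.505 and 0.367 CPM with the control guide and at 2.37, 2.05 and 2.05 CPM with the SETDB1 guide. These values did not overlap, and its rise of 4.60-fold (log2 fold change 2.20 ± 0.21, edgeR adjusted p = 1.43e-08) was the largest fitted change among tested members. Only 54.9% of the 50-base words in the exons of PCDHB8 were absent from other genes' transcripts, so its reads are the least distinct of all members. Its neighbour PCDHB16 (ENSG00000272674) stood at 0.601, 0.505 and 0.311 CPM against 1.5, 1.44 and 1.38 CPM. It rose 3.08-fold (1.62 ± 0.24, edgeR adjusted p = 5.67e-06), and 92.2% of its words were its own. Farther along the array PCDHB13 and PCDHB15 rose 1.95-fold and 2.08-fold (edgeR adjusted p = 1.97e-05 and 3.38e-04). The fifth gene called higher was PCDHB2, at 26.2, 21.4 and 20.7 CPM against 29.7, 27.2 and 25.6 CPM, where the groups overlapped and the rise was 1.21-fold (edgeR adjusted p = 0.00554).

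The beta genes that fell included the 2 most abundant ones with the control guide and a run of neighbours. PCDHB5 (ENSG00000113209) stood at 33.7, 29.7 and 28.2 CPM with the control guide and at 28.1, 24.6 and 26.4 CPM with the SETDB1 guide, and PCDHB6 (ENSG00000113211) at 28.1, 25.5 and 24.3 CPM against 21.4, 19.9 and 20.3 CPM. PCDHB5 fell by 0.21 ± 0.07 and PCDHB6 by 0.34 ± 0.07 on the log2 scale (edgeR adjusted p = 0.0129 and 1.85e-04). The lowest control value of PCDHB5 was just above its highest value with the SETDB1 guide. Next to each other in the array, PCDHB10, PCDHB11 and PCDHB12 all fell. PCDHB11 (ENSG00000197479) went from 11.2, 10.1 and 8.98 CPM to 7.07, 6.24 and 6.61 CPM (a fall of 0.60 ± 0.09 on the log2 scale, edgeR adjusted p = 1.43e-05). PCDHB12 (ENSG00000120328) went from 1.03, 0.788 and 1.21 CPM to 0.433, 0.693 and 0.556 CPM (a fall of 0.84 ± 0.25, edgeR adjusted p = 0.00625). PCDHB10 (ENSG00000120324) went from 3.57, 2.77 and 2.40 CPM to 2.40, 1.88 and 2.25 CPM (a fall of 0.41 ± 0.16, edgeR adjusted p = 0.0279), with the groups nearly touching.

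The calls of PCDHB5 and PCDHB10 did not hold without some of the libraries. PCDHB5 lost its call without SETDB1-knockout replicate 2 (edgeR adjusted p = 0.0623) and without control replicate 1 (0.0856). PCDHB10 lost its call without SETDB1-knockout replicate 2 (edgeR adjusted p = 0.114), SETDB1-knockout replicate 3 (0.0530) or control replicate 1 (0.188), and in DESeq2 (0.0681). PCDHB14 also fell, by 0.36 ± 0.09 on the log2 scale (edgeR adjusted p = 0.00173). The genes not called were PCDHB3, PCDHB4, PCDHB7 and PCDHB9, at log2 fold changes of 0.23 ± 0.15, -0.31 ± 0.21, 0.01 ± 0.39 and 0.04 ± 0.18. The libraries of PCDHB3 and PCDHB4 did not overlap between groups although neither passed the test. Of the 13 beta genes whose promoter window held GGTGGCGCT, 5 were higher, 4 lower and 4 not called. Over all genes tested 31.9% were higher and 31.6% lower.

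**Figure D2:**
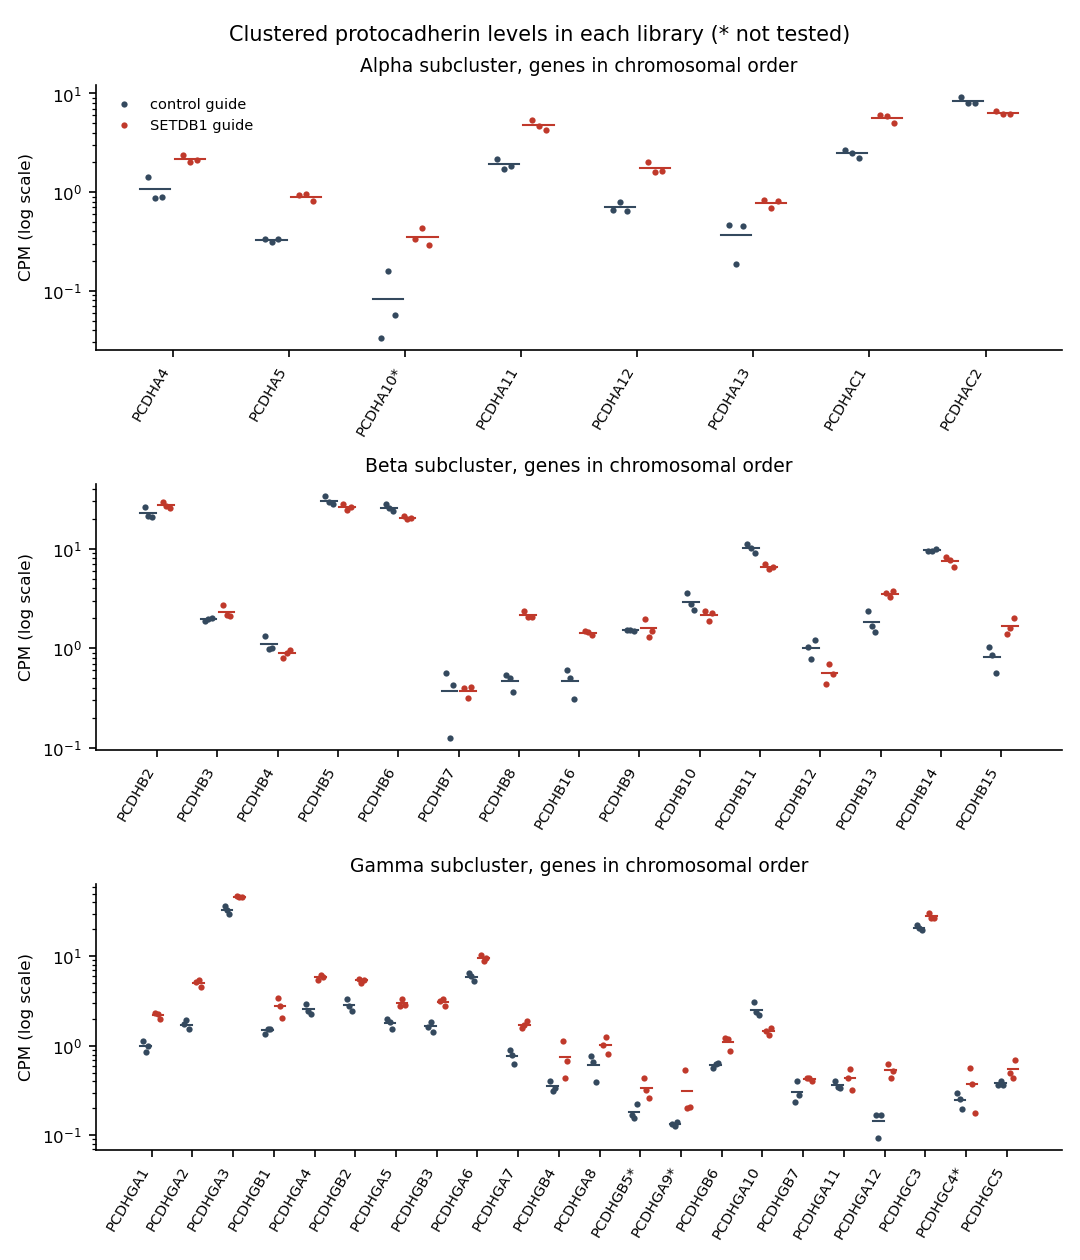
CPM of each member in each library (log axis), with the control guide in dark blue and the SETDB1 guide in red; horizontal lines are the means of 3 libraries, genes are in chromosomal order, and an asterisk marks the 4 members that were not tested. The red points of alpha genes other than PCDHAC2 and of most gamma genes lie above the blue ones, while in the beta array PCDHB8 and PCDHB16 lie above and PCDHB11 and PCDHB12 below.

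In the gamma array, 15 of 19 tested genes were higher, 1 lower and 3 not called, beside 31.9% and 31.6% of all genes. The median log2 fold change was 0.82. The first 12 genes of the array, from PCDHGA1 to PCDHGA8, were all called higher. PCDHGA2 (ENSG00000081853) stood at 1.74, 1.92 and 1.53 CPM with the control guide and at 5.13, 5.49 and 4.51 CPM with the SETDB1 guide. The groups were far apart, and PCDHGA2 rose 2.92-fold (log2 fold change 1.55 ± 0.13, edgeR adjusted p = 4.53e-09). PCDHGA4 (ENSG00000262576) stood at 2.97, 2.43 and 2.26 CPM against 5.47, 6.21 and 5.82 CPM and rose 2.30-fold (1.20 ± 0.12, edgeR adjusted p = 3.72e-08). PCDHGA7 (ENSG00000253537) stood at 0.901, 0.788 and 0.621 CPM against 1.57, 1.70 and 1.90 CPM and rose 2.26-fold (1.18 ± 0.20, edgeR adjusted p = 2.92e-05).

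PCDHGA12 (ENSG00000253159) had the largest fitted gamma rise from few reads, with 14 counts over the control libraries and 52 over the libraries with the SETDB1 guide. It stood at 0.167, 0.0946 and 0.169 CPM against 0.633, 0.433 and 0.527 CPM, without overlap, and rose 3.59-fold (1.84 ± 0.37, edgeR adjusted p = 2.33e-04). PCDHGA12 passed the filter on low counts only through the SETDB1-guide libraries, where it was high. Its rank and its place among the 15 called rises of at least 2-fold are therefore no support for a rise. The median log2 fold change was 0.78 over 11 tested A-type genes and 0.90 over 6 B-type genes, and A-type and B-type exons are named for their sequence similarity. PCDHGB1, PCDHGB2 and PCDHGB3 rose 1.84-fold, 1.90-fold and 1.89-fold. PCDHGB4 lost its call without SETDB1-knockout replicate 1 (edgeR adjusted p = 0.102, against 0.0111), and PCDHGA8 without SETDB1-knockout replicate 2 (0.0768, against 0.0129) or control replicate 3 (0.0943).

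PCDHGA10 (ENSG00000253846) was the 1 gamma gene that fell. It stood at 3.07, 2.37 and 2.20 CPM with the control guide and at 1.47, 1.33 and 1.58 CPM with the SETDB1 guide. All 3 control libraries lay above, and the gene fell by 0.79 ± 0.17 on the log2 scale (edgeR adjusted p = 3.24e-04). Its neighbours before and after it in the array, PCDHGB6 and PCDHGB7, had log2 fold changes of 0.82 ± 0.23 and 0.46 ± 0.32, of which the first passed the test (edgeR adjusted p = 0.00378 and 0.234). The promoter window of PCDHGA10 holds GNCGCTGTT, as do those of 10 tested gamma genes that rose. Of gamma reads PCDHGA10 held 3.18% ± 0.285 (SD, n = 3) with the control guide and 1.22% ± 0.124 with the SETDB1 guide.

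The most abundant gamma genes rose least among those called. PCDHGA3 (ENSG00000254245) stood at 36.9, 32.7 and 29.9 CPM with the control guide and at 46.9, 45.9 and 46.2 CPM with the SETDB1 guide. It rose 1.40-fold (log2 fold change 0.49 ± 0.07, edgeR adjusted p = 2.38e-06). PCDHGC3 (ENSG00000240184), a C-type gene, stood at 22.6, 20.8 and 19.5 CPM against 30.4, 26.7 and 26.5 CPM and rose 1.33-fold (0.41 ± 0.07, edgeR adjusted p = 4.41e-05). Neither had overlapping groups. The remaining C-type genes had few reads. PCDHGC5 (ENSG00000240764) stood at 0.367, 0.410 and 0.367 CPM against 0.5, 0.433 and 0.702 CPM and did not pass (0.52 ± 0.30, edgeR adjusted p = 0.138), although its groups did not overlap. PCDHGC4 had 24 counts over the control libraries and 36 over the others and was below the filter on low counts.

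Summed over the array, alpha genes stood at 17.1, 14.7 and 14.5 CPM with the control guide and at 24.7, 22.6 and 21.2 CPM with the SETDB1 guide, a ratio of means of 1.48. Gamma genes summed to 87.6, 79.3 and 72.3 CPM against 126, 118 and 116 CPM, a ratio of 1.51, and again no library overlapped. Beta genes summed to 123, 108 and 103 CPM against 112, 101 and 102 CPM, a ratio of 0.94, and those groups overlapped. In both groups replicate 1 was the library with the highest sum in each array. Without PCDHGA3 and PCDHGC3 the gamma ratio was 1.79, and without PCDHAC1 and PCDHAC2 the alpha ratio was 2.41. The sums have no test, because the members were chosen with results known.

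**Figure D3:**
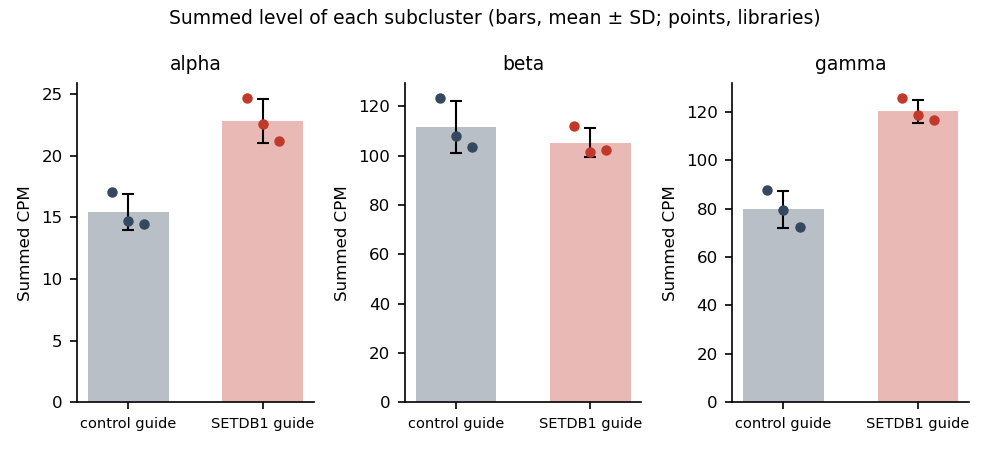
Summed CPM of the 8 alpha, 15 beta and 22 gamma members; bars are means ± SD of 3 libraries and points are single libraries, with axes from 0. The alpha and gamma libraries with the SETDB1 guide all lie above the control libraries, and the beta libraries overlap.

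Levels of different genes were compared per kb of own exon, the exon bases that no other annotated gene covers, which leaves out the shared constant exons of the alpha and gamma arrays. With the control guide PCDHGA3 led at 12.3 CPM per kb, followed by PCDHB5 at 10.5, PCDHB6 at 8.09, PCDHB2 at 6.49 and PCDHGC3 at 6.44 CPM per kb. PCDHB2 and PCDHGC3 lay within their spread. Next came PCDHAC2 at 2.65, PCDHB11 at 2.48 and PCDHB14 at 2.08 CPM per kb, and among the rest PCDHGB2 at 1.10 and PCDHGA6 at 1.03 CPM per kb were highest. With the SETDB1 guide PCDHGA3 stood at 17.2, PCDHB5 at 9.06, PCDHGC3 at 8.57, PCDHB2 at 7.84 and PCDHB6 at 6.40 CPM per kb, so the same 5 genes led. PCDHA4 and PCDHA10 carry long additional annotated exons (10574 and 9555 own bases), which lowers their level per kb. The sources used here do not give whether reads in shared exons were dropped or counted.

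**Figure D4:**
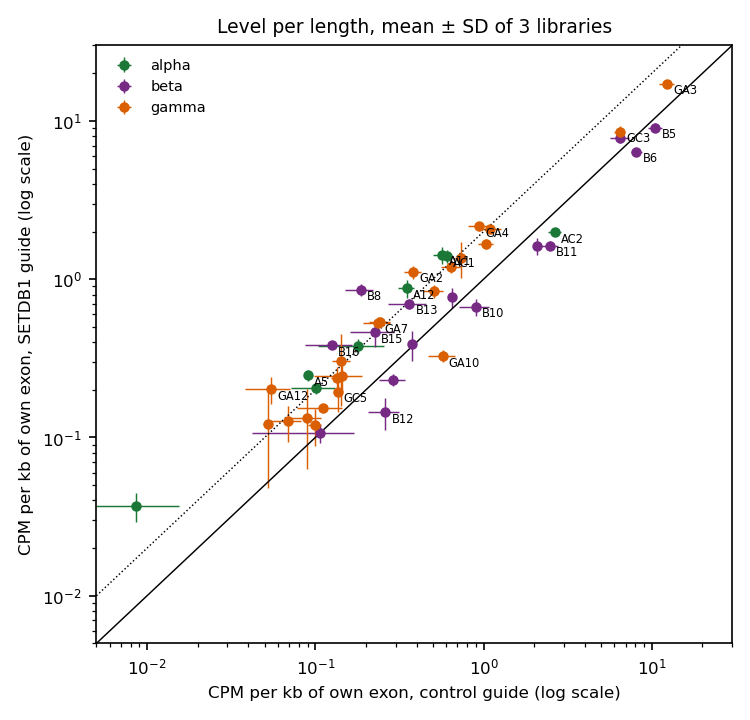
CPM per kb of own exon with the control guide (x) and the SETDB1 guide (y), both on log axes, mean ± SD of 3 libraries, for all 45 members, coloured by array (alpha green, beta purple, gamma orange); the solid line marks equal levels, the dotted line a 2-fold rise, and labels drop the prefix PCDH. Points near the dotted line are mostly alpha and gamma genes below 1 CPM per kb, while PCDHB5, PCDHB6, PCDHB11, PCDHAC2, PCDHB12 and PCDHGA10 lie below the solid line.

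Within 1 Mb of the arrays, 39 other genes were tested, of which 18 were higher and 9 lower, beside 31.9% and 31.6% of all genes, with a median log2 fold change of 0.18. TAF7, a subunit gene of the general transcription factor TFIID that lies between the beta and gamma arrays, rose 1.41-fold from 152 ± 5.20 to 215 ± 5.30 CPM (SD, n = 3; edgeR adjusted p = 6.39e-08). ZMAT2, the nearest measured gene before the alpha array, rose 1.13-fold (edgeR adjusted p = 0.00668), and DIAPH1, a formin gene just after the gamma array, did not pass (0.10 ± 0.05 on the log2 scale, edgeR adjusted p = 0.0932). Of the 13 tested genes within 150 kb outside the arrays, 9 were higher and 2 lower, and their median was 0.23. RELL2 rose 1.62-fold, and ARAP3 fell by 1.20 ± 0.08 on the log2 scale (edgeR adjusted p = 3.43e-06 and 3.86e-11).

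The comparison was also fitted with the median log2 fold change of the 25 expressed genes on each side of the arrays taken out, 0.11 over both sides. That median was 0.18 on the alpha side and -0.0045 on the gamma side, so 1 value stands for unlike sides, and the region's part in the members' changes was not tested. The members called higher were then 25 and those called lower 8, against 24.8% and 39.5% of all genes. Of the 34 calls 33 were shared with the fit without this step, and the 1 lost was PCDHB2. The members' median was 0.68, with 1.10 in the alpha, -0.09 in the beta and 0.72 in the gamma array. Of the pseudogenes within the arrays, PCDHB17P stood at 2.01 CPM and PCDHB18P at 0.271 CPM with the control guide. The log2 fold change was -0.29 ± 0.17 for PCDHB17P and 0.36 ± 0.35 for PCDHB18P, and neither passed (edgeR adjusted p = 0.148 and 0.403).

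Non-clustered protocadherins, related adhesion proteins encoded by single genes outside the arrays, were measured for 9 of 14 listed genes. PCDH1, 340 kb after the gamma array, is also counted among the other genes within 1 Mb. Of the 9 measured genes 5 were higher, 0 lower and 4 not called, beside 31.9% and 31.6% of all genes higher and lower. The number lower was also 0 at an unadjusted p under 0.05, in DESeq2 and in limma-voom. The median log2 fold change of the 9 genes was 0.71. Every row reached at least 11 counts in 1 library, and PCDH15, PCDH17 and PCDH11X did so only with the SETDB1 guide. These 3 of the genes called higher may be rows only through that group. The number lower and the median are therefore no support for a rise of the family. Of 41 clustered members 26 were higher and 8 lower. PCDH15, a component of the tip links of hair cells, went from 3 counts over the control libraries to 1386 counts, a ratio of 454 (95% exact counting interval 155 to 2204, which covers counting error only). PCDH17 went from 0.0334, 0.0315 and 0.169 CPM to 1.73, 2.28 and 1.76 CPM (22.5-fold, edgeR adjusted p = 1.34e-09). PCDH7 rose 6.87-fold, from 5.62 ± 0.589 to 38.4 ± 1.66 CPM, and PCDH10 1.63-fold. The largest rise among tested clustered genes was 4.60-fold, below those of PCDH15, PCDH17 and PCDH7, and the difference between the families was not tested.

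A list of 26 genes was drawn up for a known or possible part in protocadherin promoter choice. It held genes for the insulator protein CTCF, CTCFL, cohesin, its loaders and unloaders, DNA methyltransferases and demethylases, H3K9 and SMCHD1 repressors, ZNF143 and NSD1. Of these genes 8 were higher and 13 lower, beside 31.9% and 31.6% of all genes, with a median log2 fold change of -0.15. CTCF rose 1.31-fold from 60.9 ± 1.67 to 79.8 ± 3.08 CPM (edgeR adjusted p = 2.16e-06). CTCFL, its germline paralog, went from 0.334, 0.0946 and 0.226 CPM to 122, 136 and 138 CPM (600-fold, edgeR adjusted p = 1.34e-20). The cohesin unloader WAPL fell by 0.67 ± 0.05 and the demethylase gene TET1 by 0.81 ± 0.11 on the log2 scale, while EHMT2, another H3K9 methyltransferase gene, rose 1.98-fold (edgeR adjusted p = 7.27e-10, 3.07e-06 and 3.54e-12). EHMT1, which encodes the partner of the EHMT2 enzyme, fell by 0.31 ± 0.05 (edgeR adjusted p = 2.53e-05). SMCHD1, known for repressing clustered protocadherins, fell by 0.26 ± 0.05 (edgeR adjusted p = 1.86e-04). ATF7IP and TRIM28, also on the list, rose by 0.91 ± 0.05 and 0.82 ± 0.05 on the log2 scale (edgeR adjusted p = 7.09e-12 and 6.21e-11). The cohesin genes SMC3, STAG2 and SMC1A fell by 0.44, 0.35 and 0.25, and RAD21 rose by 0.29. DNMT3B fell by 0.44 and DNMT1 rose by 0.14. The part of the listed genes in the members' changes was not tested.

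Of 25 measured genes for partners of the protocadherin cytoplasmic domains and for their cleavage, 10 were higher and 12 lower, again beside 31.9% and 31.6% of all genes, with a median log2 fold change of -0.08. The kinases PTK2B, which alpha and gamma tails are known to bind and inhibit, and PTK2 rose 2.22-fold and 1.14-fold (edgeR adjusted p = 3.88e-05 and 0.00337). FYN and PRKCA, kinase genes, fell by 1.15 ± 0.06 and 1.18 ± 0.05 on the log2 scale (edgeR adjusted p = 1.66e-12 and 1.99e-13). ADAM10, whose product is a protease that cleaves protocadherins, fell by 0.38 ± 0.06 on the log2 scale, whereas the gamma-secretase gene PSEN2 rose 1.70-fold (edgeR adjusted p = 8.02e-06 and 1.72e-07).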

How the data were processed

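Raw counts of reads for each Ensembl gene in the 6 libraries were deposited as a single table; per the labels' protocols, TruSeq RNA libraries were made from total RNA. Per the submitters' processing notes, FastQC, TopHat2, HTSeq and GRCh38.p7 were used; the sources used here give no versions, strand or counting settings. Every row reached at least 11 counts in 1 library. Of 18677 rows, 18595 were named by GENCODE 29 (GRCh38) without the version. Each column matched 1 sample title. Replicates differed by more than counting error (chi-square per degree of freedom 2.28 to 9.85), so none was counted as a copy.

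All genes were fitted in R 4.3.3 with edgeR 4.0.16: filterByExpr kept 17675 genes, TMM factors were 0.976 to 1.02, and robust quasi-likelihood tests (glmQLFit, glmQLFTest) compared the guides, with Benjamini-Hochberg adjustment over all genes and a threshold of 0.05. The SE is the log2 fold change divided by the root of F. CPM used TMM-scaled totals. The test was checked on simulated counts. Alternatives used limma 3.58.1 (voom), DESeq2 1.42.0, other scalings and filters, glmTreat, a replicate block, a local median and each library left out. Own exon bases and 50-base words came from GENCODE 29.

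Members and lists were chosen with earlier results of these data known. Named members were, in each array, up to 4 called rises and 3 called falls with the largest change, no overlap and at least 0.1 CPM, the 2 most abundant per kb, and tested C-type genes; other members were added after their values were seen, as neighbours or to complete a count. In the other lists up to 2 called genes in each direction were named, and others were added likewise. Some listed marker and partner genes are not reported here.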

Additional observations from a re-analysis of the deposited data

How the results depend on the processing

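Scaling by size factors (RLE), library size alone, limma-voom and the replicate block each kept all 34 member calls, at 26 higher and 8 lower. Tested against a fold of 1.5, 16 members were called higher (7 in the gamma array) and 0 lower (0 in each of the alpha, beta and gamma arrays), because the threshold asks for a larger change. With at least 1 CPM in 3 libraries, 29 members were tested, and 20 were higher and 7 lower. DESeq2 called 27 and 7, and no filter 27 and 8, with PCDHA10 added in both (log2 fold change 2.10 and 2.05, adjusted p = 0.00960 and 0.00213). PCDHA10 reached 11 counts, the least maximum of any row, only with the SETDB1 guide. Its added call is therefore no support for a rise. When 1 library was left out, the members called higher numbered 25 to 27 and those lower 6 to 8. Beta genes called lower were fewest, 4, without SETDB1-knockout replicate 2 or control replicate 1. The direction of all shared member calls was kept in every alternative run.

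The titles give both groups replicate numbers 1 to 3, without saying that a number marks a shared culture or day. Deviations of same-numbered libraries from their group means correlated at 0.0878, -0.0628 and 0.0248, and those of differently numbered libraries at -0.133 to 0.123. With 3 libraries a group, these values cannot settle whether the numbers pair the samples. With the replicate block 26 members were higher and 8 lower. Members under about 0.5 CPM rest on few reads: the 4 members that were not tested had 8 to 36 counts a group.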

Other observations

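Members below the filter on low counts were PCDHA10, with 8 counts over the control libraries and 35 over the libraries with the SETDB1 guide, PCDHGB5 with 18 and 33, PCDHGA9 with 13 and 30, and PCDHGC4 with 24 and 36. The first 3 had no overlap in CPM between groups, and PCDHGC4 did. Of all genes tested, 33.5% had no overlap with the SETDB1 guide above. Every row reached at least 11 counts in 1 library, and these members did so only with the SETDB1 guide. They may be rows only because of those libraries, so their direction is no support for a rise. Outside the member list, the gamma pseudogene PCDHGB9P had 6, 4 and 3 counts with the control guide and 11, 9 and 10 with the SETDB1 guide. The same limit holds for PCDHGB9P.

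Members were split by their control level after the values had been seen, and the level shares its control libraries with the fold change, so no test is given. The 8 tested members at or above 2 CPM per kb (PCDHAC2, PCDHB2, PCDHB5, PCDHB6, PCDHB11, PCDHB14, PCDHGA3 and PCDHGC3) had log2 fold changes from -0.60 to 0.49, with 3 called higher and 5 lower. The 33 tested members below that level had a median of 0.93, with 23 called higher, 3 lower and 7 not called, and held all 15 called rises of at least 2-fold. PCDHGA12, among the 15, was tested only through its counts with the SETDB1 guide. Over all genes tested 31.9% were called higher and 31.6% lower. PCDHB10, PCDHB12 and PCDHGA10 were the members below that level that fell.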
